A study of Mus musculus with 6 samples.

Results

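The neuregulin and ErbB signaling genes of the E13.5 mouse cardiac outflow tract (OFT) were examined in 6 bulk RNA-Seq libraries. The 7 genes were taken by symbol from a list that uses no measured value, drawn up with earlier results of these data known, and are 3 ligands (*Nrg1*, *Nrg2*, *Hbegf*) and 4 receptors (*Egfr*, *Erbb2*, *Erbb3*, *Erbb4*). All 7 were found among the 28777 genes of the count table by Ensembl identifier, and all 7 were among the 28157 genes with more than 5 reads over the libraries, which were tested. At an adjusted p of at most 0.05 by the quasi-likelihood test of edgeR, past which a gene is termed called, 0 of the 7 differed between the groups, where 0.0213% of all genes tested did, and 1 of the 7 (*Erbb4*) had an unadjusted p under 0.05.

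Of the 6 libraries, 3 carry the genotype label Notch1-het; Nos3- null and 3 the label wildtype, and they are called the mutant and the wildtype libraries here. The mutant embryos were *Notch1*+/-; *Nos3*-/- and the wildtype embryos were their *Notch1*+/+; *Nos3*+/+ littermates, on the C57/BL6J background that all of them share. Both alleles are knockouts of the whole animal and were not limited to 1 cell type. Each library is a pool of 3 OFTs, cut at the base of the tract below the conal cushions, so that 18 OFTs were used and values of single embryos were not measured. Separate pools were called biological replicates by the study, and p-values measure the spread between these pools.

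ErbB receptors are receptor tyrosine kinases that act as pairs. Neuregulins bind Erbb3 or Erbb4, Hbegf binds Egfr or Erbb4, and Erbb2 has no ligand of its own but is the preferred partner of the others. In the developing heart, neuregulin 1 from the endocardium signals to Erbb2 and Erbb4 in the myocardium and is needed for trabeculation, Erbb3 acts in the cushion mesenchyme and in neural crest derived glia, and Hbegf and Egfr limit the growth of the semilunar valves.

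The 4 receptors are products of related genes, and the coding sequence of the kinase domain from the catalytic loop to the DFG motif is shown because reads of such a family could be shared between its members. The sequences were read from GENCODE M21 transcripts of mm10, 5′ to 3′ on the coding strand, and the capitals mark the codons of the aspartate of the catalytic loop and the aspartate of the DFG motif.
Egfr: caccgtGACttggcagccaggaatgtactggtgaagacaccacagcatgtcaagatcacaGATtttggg
Erbb2: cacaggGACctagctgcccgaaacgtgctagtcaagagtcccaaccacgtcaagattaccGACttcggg
Erbb3: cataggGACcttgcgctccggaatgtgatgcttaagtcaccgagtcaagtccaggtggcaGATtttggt
Erbb4: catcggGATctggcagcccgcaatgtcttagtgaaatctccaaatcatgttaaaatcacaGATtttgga
Each stretch is 69 bases long and lies within exon 21 of its transcript, at chr11:16904338-16904406 (plus strand) for *Egfr*, chr11:98434247-98434315 (plus strand) for *Erbb2*, chr10:128572488-128572556 (minus strand) for *Erbb3* and chr1:68080694-68080762 (minus strand) for *Erbb4*. Between 43 and 52 of the 69 bases were identical in the 6 pairs. Of the 23 encoded residues, *Erbb2* and *Erbb4* shared all 23, while *Erbb3* shared 14 or 15 with each of the others. Over the whole coding sequences, the longest run of identical bases shared by 2 receptors was 22, for *Erbb2* and *Erbb4*, which is shorter than the reads of 50 bp. Only exact runs in the longest coding sequence of each receptor were compared, without untranslated regions or mismatched bases. Whether reads were shared was thus not tested.

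The genes lie on 5 chromosomes of mm10. *Nrg1* (ENSMUSG00000062991) lies on chromosome 8 from 31814551 to 32884029, *Nrg2* (ENSMUSG00000060275) on chromosome 18 from 36017652 to 36197380 and *Hbegf* (ENSMUSG00000024486) on chromosome 18 from 36504927 to 36515805. *Egfr* (ENSMUSG00000020122) and *Erbb2* (ENSMUSG00000062312) lie on chromosome 11, from 16752203 to 16918158 and from 98412470 to 98437716. *Erbb3* (ENSMUSG00000018166) lies on chromosome 10 from 128567523 to 128589652 and *Erbb4* (ENSMUSG00000062209) on chromosome 1 from 68032186 to 69108059. Counts are per gene, so that isoforms, such as those of *Nrg1*, were not separated. Whether the counting used the strand is not given in the sources used here. Genes annotated on the opposite strand were nearly empty for *Nrg1* (Gm26578, 5 to 14 counts per library) and *Egfr* (Egfros, 0 to 4 counts). *Erbb2* overlaps the 3' neighbor *Mien1* (234 to 352 counts) by 9 bases.

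Libraries held between 34729103 and 44387490 counts. Values are given in CPM, the counts scaled to a common library size with TMM factors. As a check of the labels, *Nos3* was at 21.5 ± 0.949 CPM (SD, n = 3) in the mutant and 42.4 ± 9.18 CPM (SD, n = 3) in the wildtype libraries. Its log2 fold change was −0.98 (edgeR adjusted p = 0.128), so that the test did not call a gene knocked out on both alleles. *Notch1* was at 152 ± 10.9 CPM in the mutant and 82.0 ± 7.09 CPM in the wildtype libraries (SD, n = 3, log2 fold change 0.89, edgeR adjusted p = 0.0313). *Notch1* was thus higher under the label of a heterozygous loss, and every direction given here is that of the labels. The wildtype libraries differed in their marker genes, and which of them stood apart depended on the list. Replicate 3 did so in the myocardial list (27180, 28570 and 37800 CPM summed in wildtype replicates 1 to 3) and the neuronal list (23.3, 24.2 and 12.4 CPM). Replicate 1 did so in the cushion mesenchyme and blood lists. A list of 8 cushion mesenchyme markers summed to 8011 CPM in wildtype replicate 1, 5402 and 4092 CPM in wildtype replicates 2 and 3, and 7430 to 9517 CPM in the mutant libraries. A list of 6 blood markers summed to 1987 CPM in wildtype replicate 1, 4685 and 4045 CPM in the other 2, and 2384 to 2486 CPM in the mutant libraries. All 10 myocardial markers were below their wildtype level in the mutant libraries (27180 to 37800 CPM summed in the wildtype and 19070 to 26660 CPM in the mutant libraries). Of these 10, 7 had an unadjusted p under 0.05, beside 16.1% of all genes tested, and 0 were called. The tissue label was met by myocardial, endothelial (1014 to 1387 CPM summed) and mesenchymal markers, and in part by smooth muscle markers. *Acta2* made up most of the smooth muscle sum (1201 of 1591 CPM in wildtype replicate 1). The smooth muscle gene *Tagln* (2.49 ± 0.452 CPM in the wildtype and 2.64 ± 0.356 CPM in the mutant libraries, SD, n = 3) was low. *Myh11* (1.686 to 2.205 CPM in the wildtype and 3.156 to 5.149 CPM in the mutant libraries) was low too. So was *Lmod1* (2.342 to 5.984 CPM in the wildtype and 3.554 to 8.965 CPM in the mutant libraries). In bulk tissue, fewer cells of a type and less RNA per cell cannot be told apart.

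Levels of the members were compared with each other as RPKM, CPM divided by the kilobases of annotated exon. *Erbb2*, the partner receptor without a ligand, was the highest at 19.8 ± 3.75 RPKM (SD, n = 3) in the wildtype and 17.4 ± 0.856 RPKM (SD, n = 3) in the mutant libraries. In every library it was between 3.14 and 8.16 times the level of *Erbb3*, the next gene in the order. *Erbb3* (mean of 4.01 RPKM over the 6 libraries), *Hbegf* (3.74 RPKM) and *Erbb4* (3.27 RPKM) followed, and these neighbors did not differ beyond their spread, since their ranges overlapped and *Erbb3* was above *Hbegf* in 4 of 6 libraries and *Hbegf* above *Erbb4* in 5 of 6. *Egfr* (1.35 RPKM) lay below *Erbb4* in all 6 libraries. *Nrg1* (0.841 RPKM) overlapped with *Egfr* in its range and was lower in 5 of 6 libraries, and *Nrg2* (0.277 RPKM) was below *Nrg1* in 6 of 6. Of the summed RPKM of the 4 receptors, *Erbb2* made up 59.8% to 78.3%, *Erbb3* 9.59% to 20.0%, *Erbb4* 10.5% to 15.8% and *Egfr* 1.57% to 7.60%. The order by exon length does not take account of which isoforms were used.

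**Figure D1:**
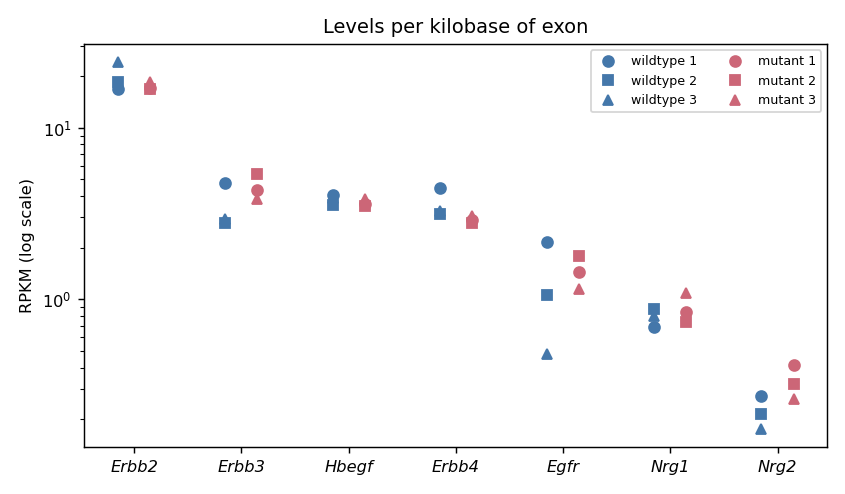
Levels of the 7 genes in RPKM on a log axis, one point for each library, with the 3 wildtype libraries in blue and the 3 mutant libraries in red. *Erbb2* lies above the other genes in every library and *Nrg2* below them.

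The ligands were examined next. *Nrg1* encodes neuregulin 1, the ligand of the endocardium. It had 7.13, 9.11 and 8.23 CPM in wildtype replicates 1 to 3 and 8.80, 7.68 and 11.3 CPM in mutant replicates 1 to 3. The groups overlapped, with the highest value in mutant replicate 3 and the lowest in wildtype replicate 1. Its log2 fold change in the mutant libraries was 0.18 (95% interval −0.19 to 0.56, edgeR, Benjamini-Hochberg adjusted p = 0.635), so that a change of 2-fold lay outside the interval in either direction. It was 0.02 without mutant replicate 3 and 0.30 without mutant replicate 2.

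*Nrg2*, a second neuregulin that also binds Erbb3 and Erbb4, was near the limit of these libraries. It had 38, 28 and 18 counts in wildtype replicates 1 to 3, or 0.855, 0.675 and 0.555 CPM, and 52, 38 and 31 counts in mutant replicates 1 to 3, or 1.30, 1.01 and 0.822 CPM. Only wildtype replicate 1 reached into the range of the mutant libraries. The log2 fold change was 0.58, the largest of the 7 genes, with a standard error of 0.34 (edgeR adjusted p = 0.415), and its 95% interval from −0.16 to 1.32 includes both no change and a change of 2-fold.

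*Hbegf* encodes heparin-binding EGF-like growth factor and was the steadiest of the ligands. Its values were 19.7, 17.2 and 18.8 CPM in wildtype replicates 1 to 3 and 17.3, 17.0 and 18.5 CPM in mutant replicates 1 to 3. All 6 libraries lay within a narrow range and the groups overlapped. The log2 fold change of *Hbegf* was −0.08 (95% interval −0.32 to 0.16, edgeR adjusted p = 0.758), and with counts scaled by library size only it was 0.02. That scaling moved the median of all genes from 0.01 to 0.11.

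**Figure D2:**
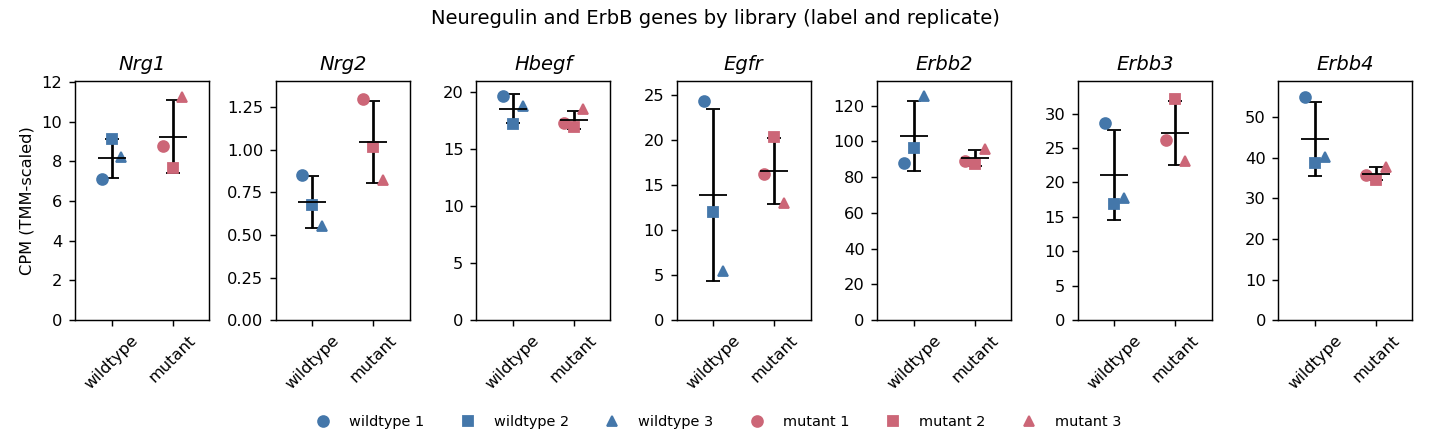
CPM of each gene in each library, with blue symbols for the wildtype and red symbols for the mutant libraries, and the mean and SD of each group in black (n = 3). The groups overlap for 6 of the 7 genes, and *Nrg2*, *Hbegf*, *Egfr*, *Erbb3* and *Erbb4* are highest among the wildtype libraries in replicate 1.

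The receptors followed. *Erbb4*, the receptor of neuregulin 1 in the myocardium, had 55.1, 38.7 and 40.2 CPM in wildtype replicates 1 to 3 and 35.8, 34.6 and 37.8 CPM in mutant replicates 1 to 3. It was the 1 gene of the 7 whose groups did not overlap, which held for 19.6% of all genes tested (exact permutation p = 0.1, two-sided, which is the lowest that 3 libraries against 3 allow). The gap between wildtype replicate 2 and mutant replicate 3 was small beside that between wildtype replicate 1 and the other wildtype libraries. The log2 fold change of *Erbb4* was −0.31 (95% interval −0.61 to −0.01, standard error 0.13), and the gene was not called (edgeR adjusted p = 0.298). Its unadjusted p of 0.0433 was the only one of the 7 under 0.05, where 16.1% of all genes had such a p. Leaving out wildtype replicate 1 gave *Erbb4* a log2 fold change of −0.13 (edgeR adjusted p = 0.375).

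*Erbb2*, the partner of Erbb4 in the myocardium, had 88.1, 96.2 and 125 CPM in wildtype replicates 1 to 3 and 88.8, 87.6 and 95.9 CPM in mutant replicates 1 to 3. Wildtype replicate 3 was the highest, and wildtype replicate 1 fell among the mutant libraries. The log2 fold change of *Erbb2* was −0.18 (95% interval −0.47 to 0.10, edgeR adjusted p = 0.508), and without wildtype replicate 3 it was −0.02. The summed myocardial markers were also highest in wildtype replicate 3 among the wildtype libraries (37800 CPM) and in mutant replicate 3 among the mutant libraries (26660 CPM). *Erbb4* did not follow that order among the wildtype libraries, being highest in replicate 1, where the myocardial markers were lowest (27180 CPM). The part of these markers in the values of *Erbb2* and *Erbb4* was not tested. Both receptors were called only in a fit with the replicate number as a block, although these numbers were not shown to pair the libraries, and a correction for GC content and length, with log2 fold changes of −0.33 for *Erbb2* and −0.35 for *Erbb4*, where 7.72% of all genes tested were called.

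*Erbb3*, the neuregulin receptor of cushion mesenchyme and glia, had 28.6, 16.8 and 17.7 CPM in wildtype replicates 1 to 3 and 26.2, 32.2 and 23.1 CPM in mutant replicates 1 to 3. Wildtype replicate 1 was within the mutant range, while the other 2 wildtype libraries were below all the mutant ones. Over the 6 libraries its log2 fold change was 0.37 (standard error 0.20, 95% interval −0.07 to 0.80, edgeR adjusted p = 0.384). Without wildtype replicate 1, *Erbb3* was called, with a log2 fold change of 0.65 (edgeR adjusted p = 0.0278). In that fit 9.45% of the 27450 genes tested were called.

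*Egfr*, the receptor of Hbegf, varied most. Its values were 24.3, 12.0 and 5.45 CPM in wildtype replicates 1 to 3 and 16.3, 20.4 and 13.1 CPM in mutant replicates 1 to 3. The wildtype libraries held both the highest and the lowest value, and the 3 mutant libraries lay between them. The log2 fold change of *Egfr* was 0.24 with a 95% interval from −0.63 to 1.12 (edgeR adjusted p = 0.807). It was 0.92 without wildtype replicate 1 (edgeR adjusted p = 0.087) and −0.13 without wildtype replicate 3. Its size thus hung on the first of these libraries and its direction on the second.

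The order of the wildtype libraries in *Egfr* was that of the cushion mesenchyme markers (8011, 5402 and 4092 CPM summed), and among the mutant libraries *Egfr*, *Erbb3* and these markers were each highest in replicate 2 and lowest in replicate 3. All 8 of these markers had log2 fold changes above 0 in the mutant libraries, with a median of 0.60. Of the 8, 6 had an unadjusted p under 0.05, beside 16.1% of all genes tested, and 0 were called. *Erbb3* may also be read beside glial markers, of which 6 of 7 were tested. The 6 Schwann cell precursor markers summed to between 6.13 and 9.43 CPM in the wildtype and between 9.12 and 10.3 CPM in the mutant libraries, and *Sox10* was at 0.535 ± 0.173 CPM (SD, n = 3) in the wildtype and 0.966 ± 0.243 CPM (SD, n = 3) in the mutant libraries. The part of either list in the values of *Erbb3* and *Egfr* was not tested.

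**Figure D3:**
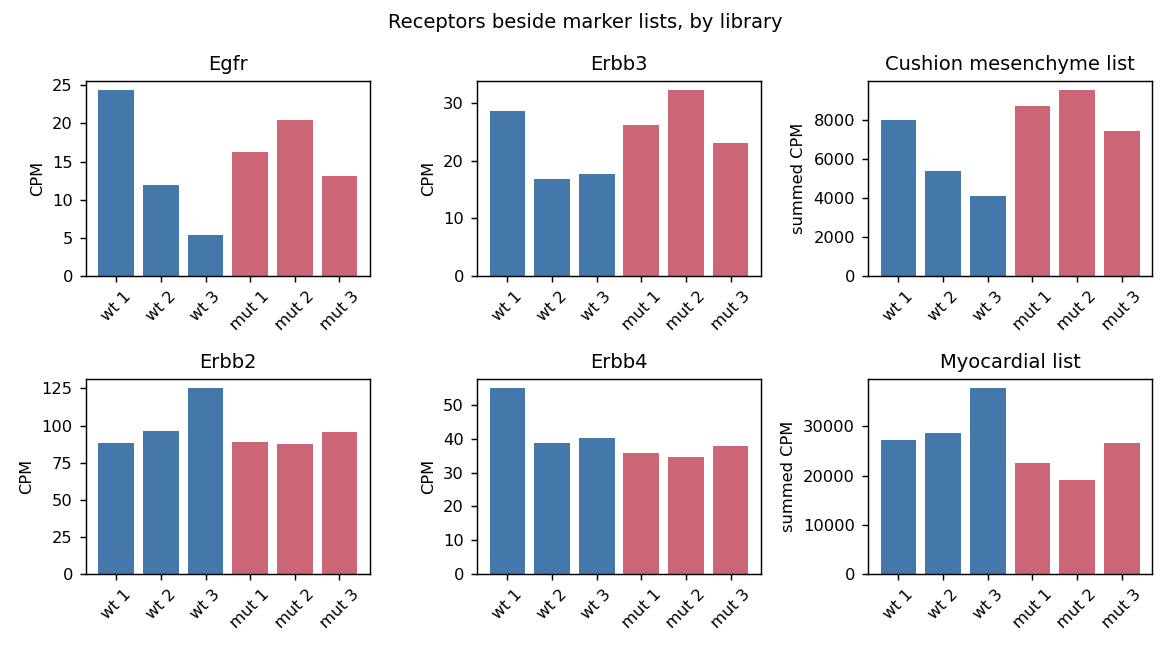
CPM of the 4 receptors and summed CPM of the cushion mesenchyme (8 genes) and myocardial (10 genes) marker lists in each library, wildtype in blue and mutant in red. *Egfr*, *Erbb3*, *Erbb4* and the cushion mesenchyme list are highest among the wildtype libraries in replicate 1, and *Erbb2* and the myocardial list in replicate 3.

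Over the 7 genes, 0 were called, where 0.0213% of all genes tested (6 of 28157) were. The number with an unadjusted p under 0.05 was 1, against 16.1% of all genes, and DESeq2's Wald test called 0 of the 7 (2.64% of all genes). Log2 fold changes were above 0 for 4 genes and below 0 for 3, with a median of 0.18 beside 0.01 for all genes tested. A change of 2-fold lay outside the 95% intervals of 5 genes, and inside those of *Nrg2* and *Egfr*.

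**Figure D4:**
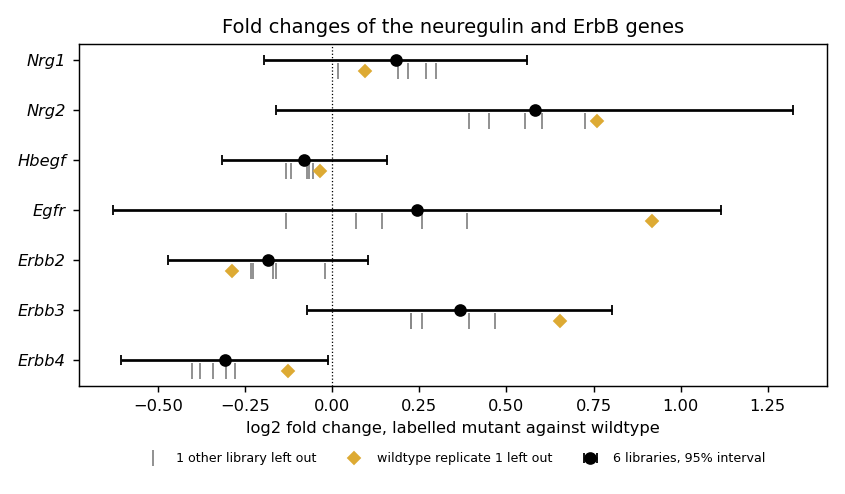
Log2 fold changes of the 7 genes in the mutant against the wildtype libraries, with 95% intervals of edgeR's fit in black, values without wildtype replicate 1 as yellow diamonds and values without each of the other 5 libraries as gray ticks. The interval of *Erbb4* alone leaves out 0, and *Egfr* has the widest spread of values when a library is left out, from −0.13 to 0.92.

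The other genes of the pathway were described by 5 lists taken from general knowledge, 85 genes in all, of which 84 were tested and *Nrg3* was not analysed here. By edgeR's test 0 of the 84 were called. Log2 fold changes were above 0 for 58 of the 84, beside 14406 of all 28157 genes tested. An unadjusted p under 0.05 was found for 13 (11 higher and 2 lower), a share near the 16.1% of all genes. Of the 16655 genes tested with a mean of at least 1 CPM, 3671 had such a p, 3920 had groups that did not overlap, and 7539 had log2 fold changes above 0. DESeq2's Wald test called 2 of the 84, near its 2.64% of all genes.

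The 7 other EGF-family ligands were all lower than *Nrg1* in mean CPM, which takes no account of exon length. Per kilobase of exon, *Tgfa* was not below *Nrg1* in the wildtype libraries (0.944 against 0.788 RPKM) and was close to it in the mutant libraries (0.885 against 0.894 RPKM). *Tgfa*, a ligand of Egfr, was the most abundant of them at 6.12 ± 1.70 CPM (SD, n = 3) in the wildtype and 5.74 ± 0.338 CPM (SD, n = 3) in the mutant libraries. *Btc* (betacellulin) and *Egf* had log2 fold changes of 0.34 and 0.35 from mean levels of 1.99 and 1.64 CPM in the wildtype libraries. *Nrg4* was at 0.911 CPM in the wildtype and 1.38 CPM in the mutant libraries. The groups of *Nrg4*, a ligand of Erbb4, did not overlap (log2 fold change 0.61, edgeR adjusted p = 0.364). This held for 1 of the 7 ligands, a smaller share than the 19.6% of all genes. *Areg* and *Ereg* had at most 17 counts in a library and *Epgn* at most 6. *Areg* had 0 counts in mutant replicate 1, which allows a level of up to 3 counts there, and changes of these 3 genes were not detectable at this depth.

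Proteases that release the ligands from the cell membrane, and their cofactors, formed a list of 12 genes. Log2 fold changes were above 0 for 10 and below 0 for 2, with a median of 0.23, and 4 had an unadjusted p under 0.05, all higher in the mutant libraries, beside 16.1% of all genes in either direction. The groups of 3 of the 12 did not overlap, beside 19.6% of all genes. *Adam8*, a metalloprotease, had 1.80 ± 0.338 CPM (SD, n = 3) in the wildtype and 3.76 ± 0.491 CPM (SD, n = 3) in the mutant libraries, a log2 fold change of 1.06 (edgeR adjusted p = 0.159). *Rhbdf1*, which encodes the inactive rhomboid iRhom1 that carries Adam17 to the cell surface, had 33.0 ± 2.65 CPM (SD, n = 3) in the wildtype and 51.7 ± 9.52 CPM (SD, n = 3) in the mutant libraries, a log2 fold change of 0.65 (edgeR adjusted p = 0.1599). These were the 2 genes of the lists that DESeq2's Wald test called (adjusted p = 0.0081 and 0.00452), and their groups did not overlap. *Cd9*, a tetraspanin that binds the membrane form of Hbegf, had a log2 fold change of 0.38 (edgeR adjusted p = 0.194), and its groups did not overlap either. *Adam17*, the main protease of EGF-receptor ligands, had a log2 fold change of 0.03 (edgeR adjusted p = 0.909). *Adam19*, a protease of neuregulins that is needed in the endocardial cushions, had 201 ± 65.9 CPM (SD, n = 3) in the wildtype and 266 ± 32.8 CPM (SD, n = 3) in the mutant libraries, and wildtype replicate 1, at 275 CPM, lay within the mutant range. *Adam17* and *Adam19* were singled out for their roles, with their values known.

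The list of adaptors and kinases that act below the receptors was the most even. Of its 34 genes, 17 had log2 fold changes above 0 and 17 below 0, between −0.34 and 0.35 with a median of −0.01. In 2 of the 34 the groups were apart, a smaller share than the 19.6% of all genes, and these were *Grb2*, an adaptor that links receptors to Ras (log2 fold change −0.23, edgeR adjusted p = 0.292), and *Nck1*, an adaptor of the cytoskeleton (−0.12, adjusted p = 0.531).

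Among 15 inhibitors of the receptors and genes of their turnover, 12 had log2 fold changes above 0, with a median of 0.10. The groups of *Ptpn12*, a tyrosine phosphatase, did not overlap (log2 fold change 0.18, edgeR adjusted p = 0.333). This held for 1 of the 15, a smaller share than the 19.6% of all genes. The 1 gene of the list with an unadjusted p under 0.05 was *Lrig1*, an inhibitor that drives the degradation of ErbB receptors (44.2 ± 10.9 CPM in the wildtype and 32.8 ± 2.54 CPM in the mutant libraries, SD, n = 3, log2 fold change −0.43, edgeR adjusted p = 0.245). *Errfi1*, the feedback inhibitor of the kinase domain, had a log2 fold change of 0.17 (adjusted p = 0.594). *Lrig1* and *Errfi1* were picked with their values known.

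Genes that respond to ERK signaling, 16 in all, had log2 fold changes above 0 for 14 and a median of 0.17. Of the 16, 4 had an unadjusted p under 0.05, all higher in the mutant libraries, beside 16.1% of all genes in either direction. The largest was that of *Fos*, an immediate early gene (2.56 ± 0.169 CPM in the wildtype and 4.10 ± 0.458 CPM in the mutant libraries, SD, n = 3, log2 fold change 0.68, edgeR adjusted p = 0.194). *Etv4*, a transcription factor induced by ERK, had a log2 fold change of 0.42 (edgeR adjusted p = 0.211). For these 2 of the 16 genes the groups did not overlap, a smaller share than the 19.6% of all genes. Many receptors besides the ErbB family act through ERK, and which of them bears on these values was not tested.

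**Figure D5:**
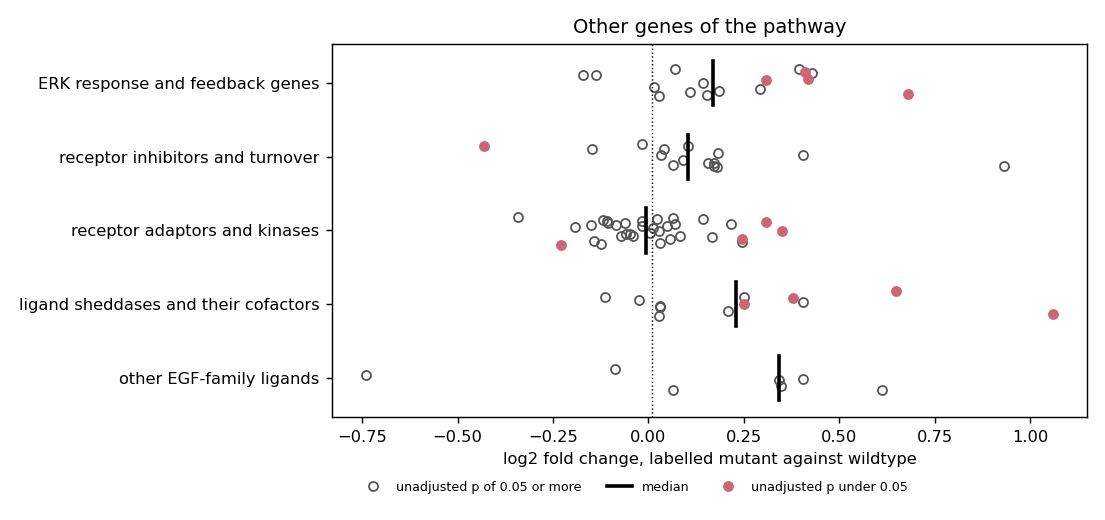
Log2 fold changes of 84 other genes of the pathway in 5 lists, one point for each gene, filled red where the unadjusted p was under 0.05, with the median of each list as a black bar and the median of all genes tested as a dotted line. The adaptors and kinases lie around 0, and *Adam8*, at 1.06, lies highest among the sheddases.

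The genes whose pattern over the 6 libraries was most like that of each member were looked up among genes whose mean reached 10 CPM, by Pearson's r of log2 CPM. For *Egfr* these were *Inhba* (r = 0.997), *L3mbtl3* (0.997) and *Dpy19l1* (0.996), for *Erbb3* *Ulk2* (0.998), *Zkscan7* (0.993) and *Zfp618* (0.992), and for *Erbb4* they included *Ppp4r2* (0.995) and *Insig1* (0.994). *Erbb2* was followed most closely by *Ehbp1l1* (0.990), *Kif1c* (0.990) and *Fam20c* (0.990), and *Hbegf* by *Suz12* (0.993), *Mdc1* (0.993) and *Sgo1* (0.990). Those nearest to *Nrg1* were *H2-D1* (0.965), *Slc25a42* (0.961) and *Tvp23b* (0.959), and to *Nrg2* *Klhl42* (0.991), *Odf2* (0.990) and *Upf3a* (0.989). The values rest on 6 libraries in 2 groups, with an r over 0.9 for 637 genes with *Erbb3* and for 11 with *Nrg1*, and are a description of these libraries only.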

How the data were processed

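The deposited table holds whole-number read counts per gene for 6 libraries, made by the authors from reads of 50 bp with TopHat2 (2.1.0) and Bowtie2 on mm10 per the labels. The annotation release and the strand setting of the counting are not given in the sources used here. The test was that of edgeR 4.0.16 in R 4.3.3 (TMM, quasi-likelihood test, Benjamini-Hochberg adjustment) on all genes with more than 5 reads over the libraries. CPM are counts scaled to a common library size with TMM factors, and RPKM divide them by kilobases of exon in GENCODE M21, where 28723 of the 28777 identifiers were found. Exact permutation tests were run with SciPy 1.17.1, and DESeq2 1.42.0 was an alternative. The fit was also run on simulated counts, and no outcome of that run is reported here. Libraries were grouped by their labels. The titles and descriptions of wildtype replicates 2 and 3 give opposite library numbers, so these 2 names may be exchanged. The 7 genes, the pathway lists and the marker lists were chosen with earlier results of these data known. Named were all 7 genes, all other EGF-family ligands, of each other pathway list up to 4 genes of at least 1 CPM whose groups did not overlap, by size of log2 fold change, and the 3 genes most like each of the 7. *Adam17*, *Adam19*, *Lrig1*, *Errfi1* and single marker genes were added with their values known. Some genes that this rule names are not reported here. Alternatives were another scaling, filter, test or threshold, a replicate block, a correction for GC content and length, and leaving out each library.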

Additional observations from a re-analysis of the deposited data

How the results depend on the processing

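Over 15 alternative settings and 7 genes, 100 of 105 log2 fold changes kept their direction and their side of the threshold. *Hbegf* turned from −0.08 to 0.022 with library size only and *Egfr* from 0.24 to −0.13 without wildtype replicate 3, and *Egfr* ranged from −0.13 to 0.92 when a library was left out (0.92 without wildtype replicate 1). Without wildtype replicate 1, *Erbb3* was called (0.65), as 1 of the 7, and its values ranged from 0.23 to 0.65 when a library was left out. With the replicate block of the titles and a correction for GC content and length, 2 of the 7 were called, *Erbb2* (−0.33, adjusted p = 0.0125 from edgeR's test) and *Erbb4* (−0.35, adjusted p = 0.0147 from edgeR's test). Of the pathway genes, 0 were called in the fit reported, 2 by DESeq2, 5 with the replicate block of the titles, 0 with that of the descriptions, 0 with the correction for GC content and length alone, 6 with the block of the titles and the correction, and 0 to 11 when a library was left out, the 11 without wildtype replicate 1. Of all genes, 6 were called in the fit reported, 742 by DESeq2, 1577 with the block of the titles, 83 with that of the descriptions, 2174 with block and correction, 2 at an adjusted p of at most 0.01, and 1 to 2593 when a library was left out, the 2593 without wildtype replicate 1. The cause was not tested. Deviations from the group means correlated at 0.0694, 0.165 and 0.563 between libraries of equal number, not every library correlated best with its own number, and no label ties the numbers to a litter or day, so the pairing was not used. With 3 pools a group, a change of 2-fold in *Nrg2* or *Egfr* lay within the error.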
